A study of Mus musculus with 16 samples.

Results

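The comparison described here set mammary glands of mice housed alone against glands of mice housed in groups, both at 20 weeks of age. It rests on 8 of the 16 arrays of the series: all 4 arrays labelled isolated and all 4 labelled grouped at that age, taken by those labels alone. The other 8 arrays are the same pair of housings at 15 weeks and enter only where a difference between ages is tested. All mice were FVB/N females homozygous for SV40 large T antigen under a fragment of the rat C3(1) prostatic steroid binding protein promoter, so the grouped controls carried the transgene too. Pups were weaned at 21 days and stayed with their sisters until an open-field test at 3.5 weeks, after which cohorts balanced for behaviour were housed singly or in groups. The light cycle was 12 h, and every mouse was killed 6 h into the dark phase and in estrus. RNA came from the whole thoracic gland, 6 micrograms an array, so epithelium, tumour if present, fat, stroma and any attached muscle were measured together. Arrays are numbered 1 to 4 within a group, and no label states that each number is another mouse, so p-values below measure the spread between samples, which may in part be technical.

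The C3(1) promoter directs large T antigen to mammary epithelium, where the viral protein binds and disables the p53 and Rb tumour suppressors and lesions form with age. In the normal gland, milk genes are switched on by prolactin through the kinase Jak2 and the factors Stat5a and Stat5b, with glucocorticoid and ovarian hormones and the factor Elf5 taking part. Most of the volume of a virgin gland is white fat, in which epithelial ducts, fibroblasts, vessels and macrophages lie embedded.

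Values are log2 signals, so that 1 unit is a 2-fold step, and differences are isolated minus grouped. Of 18193 genes tested with limma, 2 passed an adjusted p of 0.05 (Benjamini-Hochberg). Both fell with isolation, which is 0.0110% of the genes tested; no gene rose, 0%. At an unadjusted p under 0.05 there were 822 genes lower (4.52%) and 723 higher (3.97%) in isolated mice. In 363 genes all 4 isolated arrays lay below all 4 grouped ones (2.0%), and in 402 they lay above (2.21%). Over all genes the median difference was -0.01. These values are the background against which the counts for gene lists below should be read.

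Epithelial and fat markers were high on all 8 arrays: Epcam averaged 13.88 ± 0.11 (SD, n = 4) in grouped and 13.77 ± 0.06 (SD, n = 4) in isolated mice, and Fabp4, a fatty acid binding protein of fat cells, 14.41 ± 0.09 and 14.07 ± 0.39 (SD, n = 4 each). Luminal keratin Krt8 averaged 12.44 ± 0.10 in grouped and 12.39 ± 0.21 in isolated mice, and basal keratin Krt14 12.43 ± 0.15 and 12.57 ± 0.13 (SD, n = 4 each). Some arrays stood apart from their group. Isolated replicate 4 had fat genes at the level of the grouped arrays, isolated replicate 1 had the lowest fat and fast muscle signal, isolated replicate 3 had the highest lymphocyte signal, and grouped replicate 3 had macrophage and matrix genes at the level of the isolated arrays. Without isolated replicate 4, 126 genes passed lower in isolated mice (0.693% of the genes tested) and 10 higher (0.0550%), both genes of the full comparison among them. Without grouped replicate 2 or 4 no gene passed, and without grouped replicate 3 or isolated replicate 2 or 3 only Csn2 did. Signal in 3′ against 5′ control probe sets, a sign of RNA quality, did not separate the housings (exact permutation test over 70 splits of the arrays, two-sided, p = 0.629 for Gapdh and 0.4 for actin, where 0.0286 is the smallest possible).

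Casein genes gave the 2 differences that passed. Csn2, which encodes beta-casein, fell by 4.26 on the log2 scale, to a signal that may be background, so no exact fold is given for it. Csn1s1, an alpha-S1 casein, fell 1.92-fold. In mouse the casein genes lie together on chromosome 5, Csn1s1 at 87666208 to 87682578, Csn2 at 87692619 to 87699429 and Csn1s2a at 87774450 to 87788798 (GRCm38.p6). The bases just upstream of their starts are shown because a factor named above, STAT5, binds the palindrome TTCNNNGAA and 2 of the 3 windows hold it. Each sequence is 250 bases, 5′ to 3′ on the gene's own strand and taken from RefSeq. It ends just before the transcript start listed with the sequences, which for Csn2 lies just inside the gene span given above. That window reaches 87699426 and the span 87699429. Capitals mark a match on either strand, which for this palindrome is the same match.
Csn2 upstream, chr5:87699426-87699675, minus strand: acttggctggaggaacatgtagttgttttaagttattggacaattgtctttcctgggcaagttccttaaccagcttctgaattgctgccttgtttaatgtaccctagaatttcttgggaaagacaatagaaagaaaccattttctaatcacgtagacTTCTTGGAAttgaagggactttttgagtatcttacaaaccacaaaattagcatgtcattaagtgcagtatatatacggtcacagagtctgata
Csn1s1 upstream, chr5:87665958-87666207, plus strand: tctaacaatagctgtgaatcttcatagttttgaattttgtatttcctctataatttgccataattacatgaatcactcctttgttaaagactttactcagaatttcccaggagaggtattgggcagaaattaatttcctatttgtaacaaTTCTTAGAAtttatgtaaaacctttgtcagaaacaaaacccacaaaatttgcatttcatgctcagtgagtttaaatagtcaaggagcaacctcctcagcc
Csn1s2a upstream, chr5:87774200-87774449, plus strand: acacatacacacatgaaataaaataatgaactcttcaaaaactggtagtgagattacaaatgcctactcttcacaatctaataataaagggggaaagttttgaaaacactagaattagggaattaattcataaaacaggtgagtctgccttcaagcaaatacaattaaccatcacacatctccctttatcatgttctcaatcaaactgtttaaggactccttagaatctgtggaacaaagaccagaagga

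The match was TTCTTGGAA, 93 to 85 bases before the transcript start of that table, in Csn2 and TTCTTAGAA, 100 to 92 bases before it, in Csn1s1. The windows of Csn1s2a, Wap and Lalba held none. Of 7 milk protein genes looked up, 5 were in the table. Over all 32851 promoter windows of this length, 2306 (7.02%) held the motif. A match describes these letters only.

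Csn2 stood at 10.69, 11.46, 11.12 and 11.36 on grouped arrays 1 to 4 and at 6.31, 7.44, 6.21 and 7.64 on isolated arrays 1 to 4. Every isolated array lay far below every grouped one, and isolated replicates 1 and 3 lay below the lower quartile of their array, which was between 6.98 and 7.04 over the 8 arrays, where a signal on the array may be background. The means were 11.16 ± 0.34 and 6.90 ± 0.75 (SD, n = 4 each), a difference of -4.26 (SE 0.33, limma adjusted p = 0.00671). A second Csn2 probe set gave -2.01. The call was lost when grouped replicate 2 or 4 was left out (limma adjusted p = 0.0633 and 0.0732, differences -4.16 and -4.19).

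Csn1s1 was tight within each housing: 10.54, 10.73, 10.64 and 10.73 in grouped mice against 9.86, 9.85, 9.66 and 9.52 in isolated mice. The groups did not overlap, and both stayed well above the lower quartile of the arrays. It fell by 0.94 on the log2 scale (SE 0.09, limma adjusted p = 0.0163). Leaving out grouped replicate 2, 3 or 4 raised the adjusted p to 0.137, 0.0782 and 0.0911, and leaving out isolated replicate 2 or 3 raised it to 0.0566 and 0.097, with the difference between -0.91 and -0.98. It also missed the threshold with all 16 arrays in the fit (limma adjusted p = 0.122) and with the actin control as a covariate (0.0552).

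Csn1s2a, an alpha-S2 casein, had grouped values of 8.07, 9.71, 8.70 and 9.83 and isolated values of 5.95, 6.52, 6.21 and 6.22. The isolated arrays were all below the lower quartile of the arrays and the grouped ones all above it, with a wide spread among the latter. The difference was -2.85 (SE 0.35, limma adjusted p = 0.11) and, against a signal that may be background, gives no exact fold. Of its 5 probe sets, 4 had the same sign, and a second one gave -2.58. The rest, at -0.21, -0.13 and 0.06, had group means of 4.82 to 6.76, below the lower quartile. Without isolated replicate 4 Csn1s2a passed (limma adjusted p = 0.0263, difference -2.85).

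The other milk proteins differed less. Wap, the whey acidic protein, was 7.90, 7.90, 7.91 and 8.19 in grouped and 7.52, 7.50, 7.65 and 7.67 in isolated mice, a difference of -0.39 (limma adjusted p = 0.422). Lalba, the alpha-lactalbumin needed for lactose synthesis, was 8.95, 8.87, 8.86 and 8.95 against 8.65, 8.54, 8.75 and 8.70, a difference of -0.25 (limma adjusted p = 0.455). Neither pair of groups overlapped, but neither passed. Csn3, the kappa-casein that holds casein micelles in solution, ran from 9.64 to 10.19 in grouped and from 9.22 to 10.52 in isolated mice. The difference was -0.18 (limma adjusted p = 0.839), or -0.44 without isolated replicate 4, the highest array of all. Its 2 probe sets disagreed in sign, but the second, at 0.10, had means of 6.45 in grouped and 6.55 in isolated mice, below the lower quartile. Csn1s2b, another alpha-S2 casein, was 7.95, 7.76, 7.83 and 8.31 in grouped and 8.12, 7.99, 8.01 and 7.89 in isolated mice (0.04, limma adjusted p = 0.924).

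**Figure D1:**
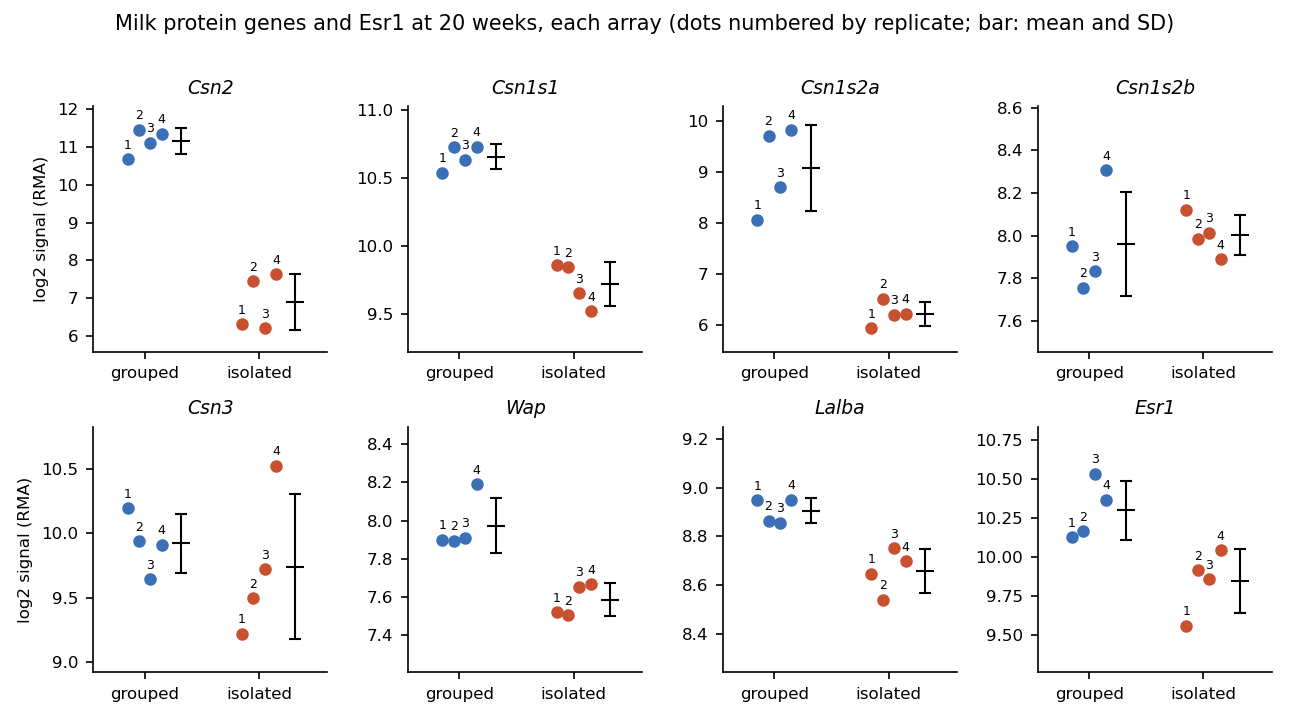
Log2 RMA signal of 7 milk protein genes and Esr1 at 20 weeks on each array (dots, numbered by replicate), grouped in blue and isolated in red, with mean and SD beside the dots; each panel has its own axis. Csn2 lies at 10.69 to 11.46 in grouped mice and at 6.21 to 7.64 in isolated mice, while Csn1s2b and Csn3 overlap.

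Of 19 genes of milk and milk secretion, these 5 (Csn2, Csn1s1, Csn1s2a, Wap and Lalba) were the ones at an unadjusted p under 0.05, and the same 5 were the ones whose groups did not overlap. The list as a whole had 14 members below 0 and a median of -0.08, against -0.01 for all genes, so most other members lay close to 0. Glycam1, a mucin of milk and of lymph node venules singled out after its values were seen, stood at 11.54 in isolated replicate 3 and between 7.38 and 7.65 on the other 7 arrays. On that array the T and NK cell list averaged 8.24, against 7.80 to 7.91 on the others, and the B cell list 8.88, against 8.35 to 8.51; their part in the Glycam1 value was not tested.

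Regulators of milk genes did not pass. Esr1, the estrogen receptor alpha, was 10.13, 10.17, 10.53 and 10.37 in grouped and 9.56, 9.92, 9.86 and 10.04 in isolated mice. The groups did not overlap and the 3 probe sets had the same sign, with a difference of -0.45 (SE 0.12, limma adjusted p = 0.465). Cish, a feedback inhibitor induced by STAT5, had a difference of -0.39 (limma adjusted p = 0.524), with isolated replicate 4 at 9.72 and the other 3 isolated arrays at 9.29 to 9.35, below the grouped range of 9.66 to 10.07. Elf5, which drives the alveolar program, had -0.33, Stat5b -0.14, Stat5a 0.05, the glucocorticoid receptor Nr3c1 -0.04 and the progesterone receptor Pgr -0.01, all with overlapping groups; Stat5a, Nr3c1 and Pgr turned sign when single arrays were left out, and Pgr also under cyclic loess, the actin covariate and array weights. Socs2, another STAT5-induced inhibitor, had 0.24 and Wnt4, a progesterone-induced ligand, -0.22. The list of 19 regulators measured had a median of -0.02.

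Luminal epithelial markers moved slightly in the direction of the caseins. The list had 18 of 19 members below 0, a median of -0.12 and an array mean of 10.86 to 11.10 in grouped and 10.65 to 10.94 in isolated mice; 3 members were lower at an unadjusted p under 0.05 and none passed. Its part in the casein result was not tested. Foxa1, a pioneer factor of hormone-sensing luminal cells, was 8.87, 9.84, 8.86 and 9.59 in grouped and 8.10, 8.45, 8.48 and 8.42 in isolated mice, without overlap (-0.92, SE 0.22, limma adjusted p = 0.429). Cdh1, or E-cadherin, had -0.27, the epithelial factor Elf3 -0.19 and the receptor Kit, also a mast cell marker, -0.30. Basal and myoepithelial markers had a median of -0.09 over 14 genes: the oxytocin receptor Oxtr, through which myoepithelium contracts, had -0.50 and the basal factor Snai2 0.36, each without overlap, and the contractile genes Mylk and Cnn1 had -0.44 and -0.31. The lowest limma adjusted p of these genes was 0.429.

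**Figure D2:**
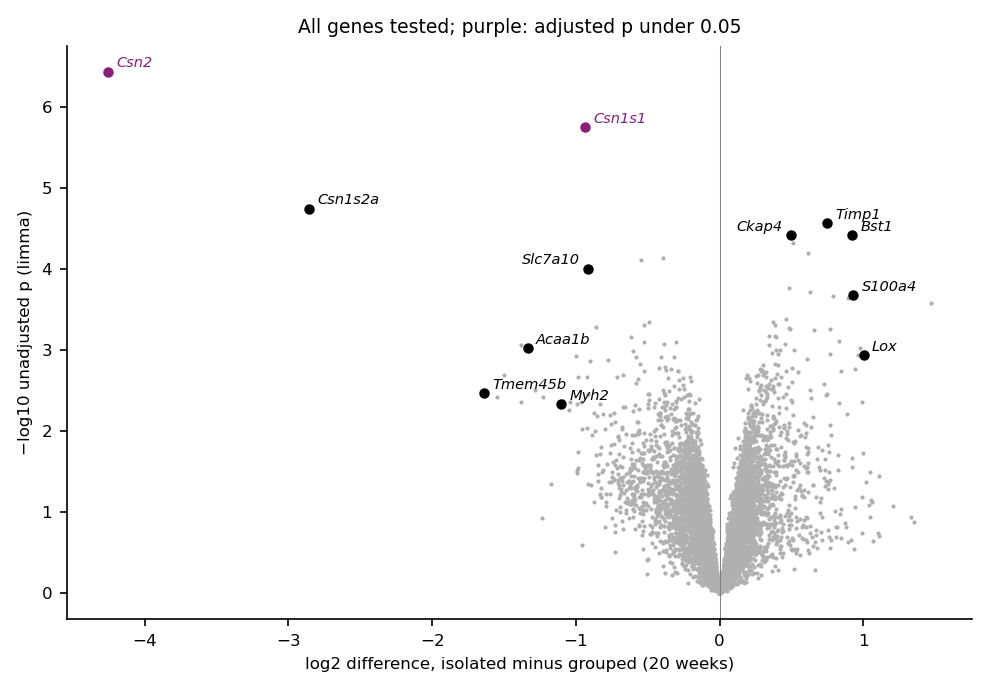
Log2 difference (isolated minus grouped, horizontal) against minus log10 of the unadjusted limma p (vertical) for the 18193 genes at 20 weeks, with 12 genes named. Csn2 and Csn1s1 (purple) are the genes with an adjusted p under 0.05, and Csn1s2a lies next to them on the lower side.

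No gene passed on the higher side. In the 10 genes with the smallest p there, the housings did not overlap; these genes were chosen by p, so this is a description. Timp1, the secreted inhibitor of matrix metalloproteinases, stood at 11.33, 11.38, 11.62 and 11.28 in grouped and at 12.12, 12.01, 12.13 and 12.35 in isolated mice, a difference of 0.75 (SE 0.10, limma adjusted p = 0.117). Bst1, an ADP-ribosyl cyclase of the surface of stromal and myeloid cells, stood at 9.12, 9.01, 9.07 and 9.15 against 10.25, 10.20, 9.96 and 9.63, a difference of 0.92 (SE 0.13, limma adjusted p = 0.117). The grouped arrays were close to each other, and isolated replicate 4 was the nearest to them. Ckap4, a membrane protein of the endoplasmic reticulum, had 0.50 (limma adjusted p = 0.117), Adam12, a membrane metalloproteinase, 0.51 (0.124) and Col5a3, a chain of collagen V, 0.62 (0.144).

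The next 5 shared a limma adjusted p of 0.259. Ext1, which extends heparan sulfate chains, had a difference of 0.48, and Emb, a partner of monocarboxylate transporters, 0.63. A second Ext1 probe set, with means of 9.14 in grouped and 9.17 in isolated mice, gave 0.03. S100a4, a calcium-binding protein of motile mesenchymal and myeloid cells, was 10.12, 10.20, 10.44 and 9.83 in grouped and 10.92, 11.04, 11.48 and 10.88 in isolated mice (0.93). Has2, which makes hyaluronan, was 8.10, 8.02, 8.33 and 8.05 against 8.81, 8.57, 9.12 and 9.17 (0.79). Ereg, a ligand of the epidermal growth factor receptor, was 6.61, 6.53, 6.15 and 6.28 against 6.93, 7.19, 7.63 and 7.41 (0.90), both near the lower quartile of the arrays. Without isolated replicate 4, 7 of these 10 passed (Timp1, Ckap4, Bst1, Adam12, Col5a3, Emb and S100a4), with limma adjusted p from 0.00492 for Bst1 to 0.0464 for S100a4. The other 3 genes that rose in that fit were P4ha2, a collagen prolyl hydroxylase (0.39, limma adjusted p = 0.0483), Ccdc122 (0.39, 0.0485) and the defensin gene Defb11 (0.34, 0.0484).

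**Figure D3:**
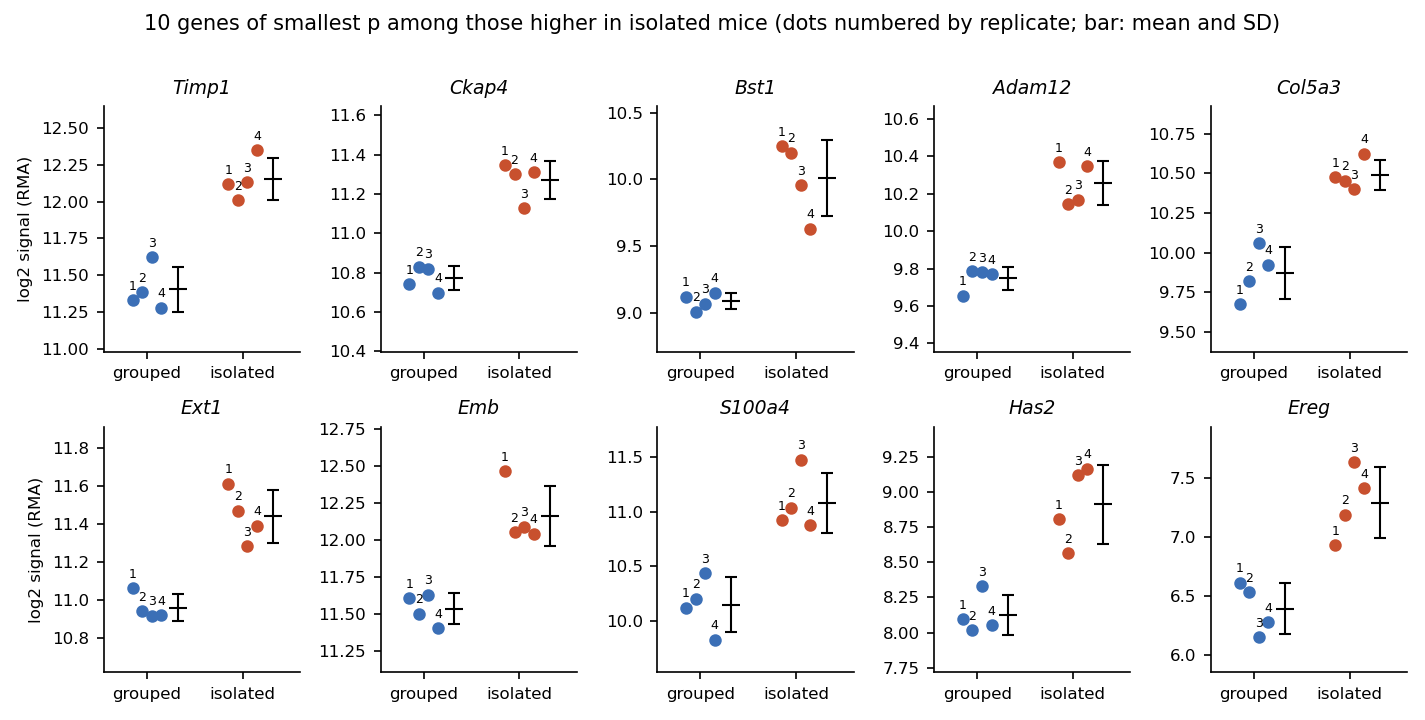
Log2 RMA signal on each array at 20 weeks of the 10 genes with the smallest p among those higher in isolated mice, with mean and SD; dots are numbered by replicate and each panel has its own axis. The 4 isolated arrays lie above the 4 grouped ones in each panel, as with Timp1 at 12.01 to 12.35 against 11.28 to 11.62.

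Collagen and matrix genes were mostly higher in isolated mice, without a gene that passed. Of 28 measured, 26 lay above 0 with a median of 0.45, 12 were higher at an unadjusted p under 0.05 and 5 did not overlap. Lox, which cross-links collagen, was 10.12, 10.32, 10.38 and 9.47 in grouped and 10.74, 11.46, 11.19 and 10.90 in isolated mice (1.0, SE 0.22, limma adjusted p = 0.422). Thbs2, a matricellular thrombospondin, was 10.48, 10.17, 10.71 and 9.91 against 11.30, 10.87, 11.15 and 11.28 (0.83, SE 0.17, limma adjusted p = 0.422). Col12a1, a fibril-associated collagen, had 0.66 and Thbs1 0.30, both without overlap; the fifth such gene was Postn, or periostin, at 0.33, named after its values were seen. No matrix gene of the list passed without isolated replicate 4 either, and the median there was 0.34.

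Fibroblast markers shared this pattern in part: 12 of 14 lay above 0 with a median of 0.27, and S100a4 and Fbln2 (0.54, fibulin of elastic fibres) did not overlap. Pdgfra, a receptor that marks fibroblasts, had 0.40 and Mfap5, a microfibril protein, 0.80, both with overlapping groups. The array means of this list ran from 10.45 to 11.44 in grouped and from 10.56 to 11.47 in isolated mice, so the groups overlapped almost wholly, and grouped replicate 3 held the highest grouped value. Without that array the medians were 0.64 for matrix and 0.50 for fibroblasts, and still no matrix gene had a limma adjusted p under 0.05. Metalloproteinases and their inhibitors had a median of 0.15 over 18 genes; apart from Timp1, Timp4 had -0.12, Mmp14, which activates other metalloproteinases, 0.16 and Mmp23 0.33. In whole tissue, a change in the number of cells of one type and a change in RNA per cell cannot be told apart, and this holds for each cell type list here.

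Macrophage genes were all on the higher side. All 24 measured lay above 0, with a median of 0.51; 7 were higher at an unadjusted p under 0.05, 1 did not overlap and none passed. That 1 was Aif1, an actin-bundling protein of macrophages, at 8.76, 8.42, 8.94 and 8.70 in grouped and 9.27, 9.36, 9.11 and 9.14 in isolated mice (0.52, SE 0.11, limma adjusted p = 0.422). Fcgr1, a high-affinity receptor for antibodies, and Tyrobp, a signalling adaptor of myeloid cells, each had 0.60, and Arg1, the arginase of alternatively activated macrophages, 0.61. A second Fcgr1 probe set of similar signal, with means of 8.88 in grouped and 8.93 in isolated mice, gave only 0.05. The list mean was 10.45, 10.12, 11.02 and 10.11 in grouped and 10.44, 11.06, 11.10 and 10.95 in isolated mice: grouped replicate 3 sat with the higher isolated arrays, and isolated replicate 1 sat with the lower grouped ones. In the matrix list the means of these arrays were 11.79 and 11.36.

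Chemokines and interferon genes followed with smaller differences. Of 25 chemokine and receptor genes, 18 lay above 0 (median 0.23), 7 were higher at an unadjusted p under 0.05 and 2 did not overlap. Those 2 were Ccr1, a receptor of monocytes, at 8.63, 8.23, 8.73 and 7.87 in grouped and 8.83, 9.25, 9.37 and 9.00 in isolated mice (0.75, limma adjusted p = 0.455), and Ccl22 (0.18, near the lower quartile). The monocyte attractants Ccl2 and Ccl7 had 0.51 and 0.45. Interferon-induced genes had 15 of 17 above 0, a median of 0.25 and 6 at an unadjusted p under 0.05, and isolated replicate 4 was the highest array for the list at 10.01, against 9.57 to 9.75 on the other isolated and 9.41 to 9.59 on the grouped arrays. Ifit1 and Ifit3, which bind viral RNA, each had 0.45, the protease Usp18 0.41 and the antiviral GTPase Mx1 0.25. Without isolated replicate 4 the list median was 0.12.

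Class II genes of antigen presentation had 8 of 9 members above 0 and a median of 0.20, or 0.30 without grouped replicate 3. Other blood cell lists lay nearer 0. Neutrophil genes had a median of 0.11 over 13, T and NK cell genes 0.04 over 17 and B and plasma cell genes 0.08 over 13. Of these lists, 1 member was at an unadjusted p under 0.05, the neutrophil list's Il1b, an inflammatory cytokine gene with a difference of 0.22, named after its values were seen. Mast cell genes had a median of 0.12 over 11, with a wide spread between arrays of one housing. The protease gene Mcpt4 was 8.38, 7.96, 10.47 and 7.69 in grouped mice and ran from 8.56 to 10.08 in isolated mice. Cpa3, a carboxypeptidase of mast cell granules, was 9.13, 8.28, 10.84 and 8.82 against 9.16, 10.45, 10.48 and 9.63. Grouped replicate 3 was the highest array for both.

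Fat genes lay on the lower side. Of 19 white adipocyte markers, 18 lay below 0 with a median of -0.68, 11 were lower at an unadjusted p under 0.05 and 2 did not overlap; none passed. Adipoq, which encodes the hormone adiponectin, was 13.90, 13.51, 13.55 and 13.40 in grouped and 12.09, 12.76, 12.50 and 13.34 in isolated mice (-0.92, SE 0.24, limma adjusted p = 0.455). Retn, or resistin, was 13.11, 12.36, 12.38 and 12.46 against 11.57, 11.82, 11.29 and 12.03 (-0.90, limma adjusted p = 0.429). In both genes isolated replicate 4 was the isolated array nearest to the grouped ones. Lpl, the lipase that releases fatty acids from lipoproteins, had -0.80, the lipid droplet coat gene Plin4 -0.68 and Lep, or leptin, -0.53, all with overlap.

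Genes that build fatty acids and triglycerides were all below 0: 25 of 25, with a median of -0.61 and 16 lower at an unadjusted p under 0.05, and in no member did the groups lie apart. Fasn, the fatty acid synthase, was 13.86, 13.75, 13.81 and 13.86 in grouped and 12.61, 12.95, 12.75 and 13.95 in isolated mice. In Fasn isolated replicate 4 was the highest of all 8 arrays and the other 3 isolated arrays were all below the grouped ones. Acaca, the acetyl-CoA carboxylase, was 12.56, 12.34, 12.48 and 12.80 against 11.42, 11.45, 11.32 and 12.70, and Acly, the citrate lyase, 13.41, 13.07, 13.44 and 13.54 against 12.40, 12.48, 12.53 and 13.61. With all 8 arrays the differences were -0.75, -0.82 and -0.62 (limma adjusted p = 0.567, 0.567 and 0.577).

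Without isolated replicate 4, 13 of the 25 synthesis genes and 8 of the 19 adipocyte genes fell, against 0.693% of all genes tested. Fasn fell by 1.05 (limma adjusted p = 0.00574), Acaca by 1.15 (0.00751), Acly by 0.90 (0.019) and the triglyceride synthase gene Dgat2 by 1.35 (0.00852), all on the log2 scale. Slc25a1, which exports citrate from mitochondria, fell by 0.96 (0.00751), Srebf1, a transcription factor of lipid synthesis, by 0.64 (0.0264) and Insig1, which holds its precursor in the endoplasmic reticulum, by 0.82 (0.0375). Adipoq fell by 1.14 (0.0319), Lpl by 1.04 (0.0335) and Plin4 by 0.89 (0.0352); the values in brackets are limma adjusted p. Since the array left out was the one nearest to the grouped mice in these genes, the fit without it is a description of the other 7 arrays and does not replace the one with all 8.

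Csn2, Csn1s2a, Dgat2 and 7 further genes made up the 10 steepest falls in that fit. Tmem45b, a membrane protein gene, was 10.75, 10.48, 10.49 and 10.32 in grouped and 7.85, 8.76, 8.59 and 10.28 in isolated mice, and it fell by 2.11 on the log2 scale without isolated replicate 4 (limma adjusted p = 0.00839), against a difference of -1.64 with it (0.455). Acaa1b, a peroxisomal thiolase of fatty acid breakdown, was 9.78, 9.73, 9.19 and 9.58 against 7.85, 8.01, 7.91 and 9.18; it fell by 1.65 (0.00553). Ces1d, a lipase of adipocytes and liver, fell by 1.58 (0.0115), the amino acid transporter Slc36a2 by 1.43 (0.019), Aoc3, an amine oxidase of fat and vessels, by 1.40 (0.0157), Acss2, which makes acetyl-CoA from acetate, by 1.37 (0.019) and the prostaglandin receptor Ptger3 by 1.33 (0.0355). These 7 were lower on isolated arrays 1, 2 and 3 than on any grouped array. They were chosen by the fit of those same arrays, so this is a description.

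Beside the caseins, 7 genes complete the 10 with the smallest p on the lower side over all 8 arrays. Slc7a10, a neutral amino acid transporter of white adipocytes, was 10.06, 9.53, 9.45 and 9.67 in grouped and 8.70, 8.80, 8.55 and 8.99 in isolated mice (-0.92, SE 0.14, limma adjusted p = 0.165). Abcd2, which carries very long chain fatty acids into peroxisomes, was 9.68, 9.07, 9.39 and 9.41 against 8.22, 8.67, 8.34 and 8.88 (-0.86, limma adjusted p = 0.38). In both, isolated replicate 4 stayed below the grouped arrays. The cytokine gene Il17b had -0.40 and Car8, a carbonic anhydrase relative without catalytic activity, -0.55 (limma adjusted p = 0.144 each). Bex4 had -0.49, Shisa2 -0.53 and Art3 -0.62, with limma adjusted p from 0.38 to 0.411.

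Lists of energy genes that fat and muscle share had medians below 0. Over all genes tested, 4.52% were lower at an unadjusted p under 0.05. Fatty acid oxidation had 17 of 18 members below 0 and a median of -0.33. Hadh, a dehydrogenase of the pathway, was the 1 member of 18 at an unadjusted p under 0.05 (-0.62). That share is near the one over all genes, and in no member did the groups lie apart. The list mean of isolated replicate 4, 12.00, was above the grouped range of 11.22 to 11.78. On the remaining isolated arrays it ran from 10.48 to 11.18. Isolated replicate 4 was also the highest array for thermogenic fat genes, at 10.28. Glucose uptake and glycolysis had 13 of 17 below 0 and a median of -0.17: the insulin-regulated transporter Slc2a4 had -0.55, the muscle phosphofructokinase Pfkm -0.65, the hexokinase Hk2 -0.56 and Tpi1, without overlap, -0.17. Thermogenic fat genes had a median of -0.40 over 12, with no member at an unadjusted p under 0.05. Cholesterol synthesis genes had a median of -0.03 over 18, with no member at that level either.

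Muscle genes lay lower in isolated mice although the sample is mammary gland. All 16 fast fibre genes were below 0, with a median of -0.55; 12 were at an unadjusted p under 0.05, 3 did not overlap and none passed. Myh2, a fast myosin heavy chain, was 11.35, 11.91, 11.82 and 12.47 in grouped and 9.94, 11.11, 11.02 and 11.07 in isolated mice (-1.10, SE 0.30, limma adjusted p = 0.465). Actn3, the actinin of fast fibres, had -0.83 and the calcium buffer Pvalb -0.59, both without overlap. The list mean was 13.12 to 13.84 in grouped and 12.41 to 13.26 in isolated mice, with isolated replicate 1 the lowest. All 10 slow fibre genes were below 0 as well (median -0.44), and 4 were at an unadjusted p under 0.05: Myl2 -1.18, Myh7 -0.995, Tnnt1 -0.98 and Tnnc1 -0.75. The fat and glycolysis lists were on the lower side too. Isolated replicate 1 had the lowest white adipocyte, glycolysis and fast muscle means of the 8 arrays (10.45, 11.23 and 12.41). Isolated replicate 4 had the highest white adipocyte and glycolysis means (11.74 and 11.90) and the lowest slow muscle mean (8.96), with fast muscle at 13.16. A link between these lists was not tested.

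Endothelial markers were also on the lower side, with 16 of 16 below 0, a median of -0.35, 5 at an unadjusted p under 0.05 and 1 without overlap. Robo4, a guidance receptor of endothelium, was 8.71, 8.98, 8.70 and 8.78 in grouped and 8.24, 8.36, 8.61 and 8.69 in isolated mice (-0.32, limma adjusted p = 0.567). Cdh5, the cadherin of endothelial junctions, had -0.56, the transcription factor Sox17 -0.51 and the adhesion gene Esam -0.36. Isolated replicate 4, with a list mean of 9.74, lay inside the grouped range of 9.40 to 9.91, and the other 3 isolated arrays lay below it at 8.85 to 9.30. Without that array the median was -0.48 and no member passed.

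**Figure D4:**
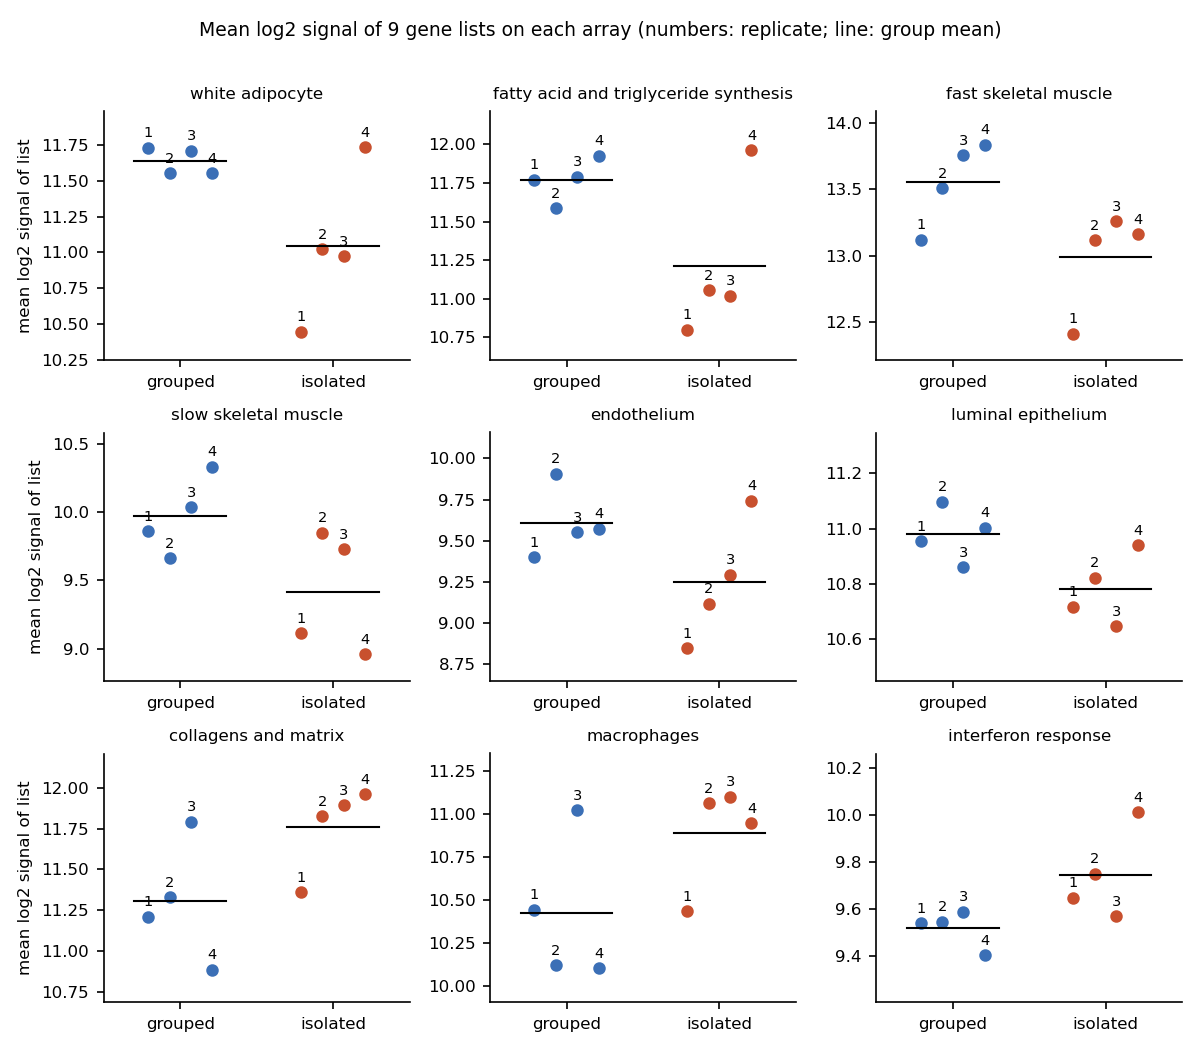
Mean log2 signal of 9 gene lists on each array at 20 weeks (dots numbered by replicate) with the group mean as a line; each panel has its own axis. Isolated replicate 4 lies inside the grouped range for endothelial genes and just above it for white adipocyte (11.74) and fat synthesis genes (11.96). Grouped replicate 3 lies among the isolated arrays for macrophage and matrix genes.

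Clock genes showed small differences with little spread. Of 18 measured, 6 were lower and 2 higher at an unadjusted p under 0.05, and 4 lower and 1 higher did not overlap; the list median was -0.09 and none passed. Dbp, a clock output factor, was 8.41, 8.47, 8.64 and 8.58 in grouped and 8.18, 8.38, 8.18 and 8.08 in isolated mice (-0.32, SE 0.08, limma adjusted p = 0.455). Its relatives Hlf and Tef had -0.21 and -0.20, and Nr1d2, a nuclear receptor that represses Arntl, was 11.43, 11.62, 11.29 and 11.44 against 11.16, 11.20, 11.15 and 11.12 (-0.29, limma adjusted p = 0.465). A second Nr1d2 probe set, with means of 8.95 in grouped and 8.86 in isolated mice, gave -0.09. The 2 genes higher at an unadjusted p under 0.05 were Arntl itself, the partner of Clock, with 0.18, and Nfil3 with 0.22. Both were named after their values were seen. All mice were killed at the same labelled hour.

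Stress hormone targets gave no common direction. The glucocorticoid response list had a median of -0.04 over 21 genes, with 5 lower and 1 higher at an unadjusted p under 0.05. Klf15, a factor induced by glucocorticoid and abundant in fat, was 9.25, 8.89, 9.00 and 9.00 in grouped and 8.22, 8.30, 8.39 and 8.80 in isolated mice (-0.61, SE 0.13, limma adjusted p = 0.422). Klf9 had -0.43, the mineralocorticoid receptor Nr3c2 -0.23 and Errfi1, an inhibitor of the epidermal growth factor receptor, 0.20. Klf15 and Klf9 fell without isolated replicate 4 (by 0.73 and 0.54 on the log2 scale, limma adjusted p = 0.019 and 0.0369). The 18 immediate early genes had a median of -0.03.

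Growth factor and hypoxia lists had single members apart from 0. Among ErbB receptors and ligands (median -0.05 over 12), Ereg was higher as given above and Nrg4, a ligand secreted by fat, had -0.62, while the receptors Erbb3 and Erbb2 had -0.26 and -0.17. In the insulin-like growth factor axis (median -0.02 over 14), the binding protein gene Igfbp2 was 8.94, 8.74, 9.25 and 8.73 in grouped and 10.18, 10.46, 9.07 and 9.26 in isolated mice (0.83, limma adjusted p = 0.567), so the groups overlapped by isolated replicate 3. Igfbp3 had 0.56, the growth factor Igf2 -0.26 and the insulin receptor Insr -0.37, and Insr fell by 0.54 without isolated replicate 4 (limma adjusted p = 0.019). Another Insr probe set, with means of 8.25 in grouped and 8.23 in isolated mice, gave -0.02 over all 8 arrays. Of 15 hypoxia genes, 10 lay above and 5 below 0, with a median of 0.10. At an unadjusted p under 0.05, 4 were higher: Adm, or adrenomedullin, 0.62, Vegfa, the main angiogenic factor, 0.32, P4ha2 0.32 and P4ha1 0.21. The last 2 encode prolyl hydroxylases. No member was lower at that level, but Hk2 had -0.56, Pdk1 -0.50 and Bnip3 -0.32.

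Proliferation genes, which large T antigen drives through Rb, did not separate the housings. Of 28 cell cycle genes, 14 lay above and 14 below 0 with a median of 0.00, and none was at an unadjusted p under 0.05. Mki67, the proliferation antigen, was 12.42, 12.57, 12.08 and 12.48 in grouped and 12.55, 12.19, 11.87 and 12.10 in isolated mice (-0.21, SE 0.15, limma adjusted p = 0.699). Cdc20 had -0.19, the helicase gene Mcm6 -0.14 and the thymidine kinase gene Tk1 0.25, the last without overlap. The p53 and Rb list had a median of 0.01 over 19 genes. A p that misses the threshold does not show that proliferation was alike.

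At 15 weeks the same housings gave other values, and the arrays of each age shared a value distribution of their own, so the difference of the differences was tested in a fit of all 16 arrays. In 2 genes it passed (0.0110% of those tested), and 2313 were at an unadjusted p under 0.05. That count rested on single arrays: it was 0 when grouped replicate 1, isolated replicate 2 or isolated replicate 4 of 15 weeks or grouped replicate 2 or 4 of 20 weeks was left out, and 1 without isolated replicate 1 of 15 weeks or isolated replicate 3 of 20 weeks. It was 13 without grouped replicate 3 of 15 weeks, and without isolated replicate 1, grouped replicate 3 and isolated replicate 4 of 20 weeks in turn it was 5, 86 and 139. Csn2 had -0.35 (SE 0.31) at 15 weeks against -4.26 at 20 weeks, a difference between ages of -3.91 (SE 0.50, limma adjusted p = 0.0158). Sprr2f, a small proline-rich protein of cornified epithelium, had 0.97 at 15 weeks (limma adjusted p = 0.025) and -0.10 at 20 weeks, a difference of -1.07 (limma adjusted p = 0.0352), at signals of 5.43 to 5.80 on the 20-week arrays, below their lower quartile. Dusp26, a phosphatase gene and the third smallest p, had 0.22 and -0.30 (limma adjusted p = 0.127). For Csn1s1 the values were -0.40 and -0.94, and the difference of -0.54 did not pass (limma adjusted p = 0.446).

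For lists the 15-week values stand beside those of 20 weeks with no test. Over all genes at 15 weeks, 8375 of 18193 lay above 0, with a median of -0.01. Fat synthesis had a median of 0.27 with 23 of 25 genes above 0 at 15 weeks, against -0.61 at 20 weeks. Macrophage genes had -0.35 with 0 of 24 above 0, against 0.51. Slow muscle genes had 0.77 with 10 of 10 above 0, against -0.44, and collagens and matrix had -0.10, against 0.45. White adipocyte markers had -0.07 at 15 weeks. No member of these lists passed the test of the difference between ages: Acaca had -1.27 (limma adjusted p = 0.208), Aif1 0.81 (0.127) and the slow myosin gene Myh7 -2.43 (0.197).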

How the data were processed

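RNA from 16 mammary gland samples was measured on Affymetrix mouse arrays, 4 for each housing and age. The authors deposited log2 signals made with RMA in the affy package, per the submitters' processing notes; versions are not given in the sources used here. Of 45101 probe sets, 34945 have 1 gene symbol in the platform annotation, 932 have several and 9211 are not listed; the probe set of highest mean over the 16 arrays was kept for each of 18193 symbols, with no filter on low values. The isolated and grouped arrays of 20 weeks were compared with limma 3.58.1 in R 4.3.3 (lmFit, eBayes with intensity trend, two-sided, Benjamini-Hochberg over all genes, threshold 0.05), and the test of the difference between ages used all 4 groups. The code was tested on simulated data. The number of arrays limits the precision, and no pair of arrays of a group was a duplicate (SD of their difference 0.157 to 0.32).

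The comparison, the 36 gene lists (584 of 639 entries measured) and the named genes were chosen with earlier results of these data known, so no list is independent support, and lists are described by counts and medians without a test. Named were all genes that passed, the 10 smallest p in each direction, up to 4 members of smallest p of each list described, a fixed set of milk, hormone and fat genes (1 of them, Prlr, not analysed here), the 10 largest increases and decreases that passed without isolated replicate 4 and the 3 smallest p between ages. Alternatives covered normalization, filter, choice of probe set, arrays in the fit, RNA quality covariates, variance model, array weights, replicate block and leaving out each array. For a possible pairing of same-numbered arrays, the correlation of their deviations from the group means was computed. Promoter sequences came from RefSeq (GRCm38.p6).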

Additional observations from a re-analysis of the deposited data

Results flagged for a closer look

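For the named genes and the list means, 340 groups of 4 arrays were checked with Dixon's test. Independent groups not chosen by their values would give about 1 in 20, or 17, by chance. Here some genes were named through the fit without isolated replicate 4 or after their values were seen. All groups also come from the same 8 arrays, so the count found cannot be judged against 17. In 28 groups (8.24%) 1 array lay farther from the rest than the critical value of the test allows. Isolated replicate 4 was such an array for Acaca (12.70, the others 11.32 to 11.45), Acly (13.61, the others 12.40 to 12.53), Acss2 (11.30, the others 9.63 to 9.85), Acaa1b (9.18, the others 7.85 to 8.01), Acads (10.70, the others 10.06 to 10.08), Insr (9.83, the others 9.09 to 9.19) and Cish (9.72, the others 9.29 to 9.35), high in each.

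Isolated replicate 1 was low for the fast skeletal muscle list (12.41, the others 13.12 to 13.26), Myh2 (9.94, the others 11.02 to 11.11), Pfkm (11.05, the others 11.82 to 11.97), Arg1 (10.43, the others 11.22 to 11.36), Foxa1 (8.10, the others 8.42 to 8.48) and Il17b (8.57, the others 8.67), and high for Emb (12.47, the others 12.04 to 12.09) and Tk1 (10.78, the others 10.23 to 10.32). Isolated replicate 3 was high for Glycam1 (11.54, the others 7.38 to 7.51) and for the lists of T and NK cells (8.24, the others 7.81 to 7.86) and B and plasma cells (8.88, the others 8.35 to 8.41), and low for Mcm6 (12.30, the others 12.66 to 12.70).

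Grouped replicate 1 was low for Adam12 (9.66, the others 9.77 to 9.78) and Stat5a (9.44, the others 9.61 to 9.63) and high for Ext1 (11.06, the others 10.92 to 10.94) and Retn (13.11, the others 12.36 to 12.46). Grouped replicate 3 was low for the cholesterol synthesis list (9.98, the others 10.22 to 10.25) and the ErbB list (8.44, the others 8.51). Grouped replicate 4 was high for Wap (8.19, the others 7.90 to 7.91) and low for Ifit1 (8.41, the others 8.78 to 8.85) and the adrenergic receptor list (8.20, the others 8.40 to 8.44).

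The housing difference itself differed between 20 and 15 weeks, tested as an interaction with limma, for Csn2 (-3.91, adjusted p = 0.0158) and Sprr2f (-1.07, adjusted p = 0.0352).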

How the results depend on the processing

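Against 2 genes with all 8 arrays, the number that passed was 8 with all 16 arrays in the fit, 1 with the actin control as covariate, 4 with array weights, 4 when every probe set was tested, and 0 to 136 when 1 array was left out. Quantile normalization gave 3, and so did choosing each gene's most variable probe set. Same-numbered arrays of the 2 housings had correlations of 0.42, -0.16, 0.49 and -0.10 between their deviations. Differently numbered arrays were not set beside them, so these values cannot decide whether the numbers are pairs. The main fit did not pair them. A replicate block gave 3 genes, with limma adjusted p of 0.00137 for Csn2 and 0.057 for Csn1s1. Between ages, the 2 genes became 1 without the intensity trend, 61 with a replicate block within age and 0 to 139 when 1 array was left out. Csn2 passed in 17 and Csn1s1 in 11 of 19 alternatives, and neither turned sign.

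Of 134 named genes, 129 kept their sign in every alternative. Pgr turned to 0.0014 under cyclic loess, 0.049 with the actin covariate and 0.042 with array weights. With 1 array left out, Pgr ran from -0.085 to 0.13, Csn1s2b from -0.027 to 0.16, Stat5a from -0.027 to 0.12, Nr3c1 from -0.11 to 0.022 and Glycam1 from -0.087 to 1.30. Of the 36 list medians, 24 kept their sign throughout; those of the cell cycle, p53 and Rb and insulin-like growth factor lists, near 0, turned most often, and that of thermogenic fat ran from -0.83 to 0.0007. Cyclic loess and quantile normalization moved the median of all genes by 0.004 and 0.0066. Small differences near the lower quartile of an array are limited by background signal. Other probe sets above it could give smaller differences, as -0.31 for Acaca, -0.14 for Oxtr and -0.0003 for Erbb3, or larger ones, as -1.14 for Abcd2. With 4 arrays a group, a list whose members all lie on 1 side may still follow 1 or 2 arrays, as isolated replicate 4 and grouped replicate 3 show. The cause of these changes was not tested.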

Other observations

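The largest positive difference of the genes tested was 1.47 (SE 0.26) for C1qtnf3, chosen after its values were seen, which encodes a secreted protein of the C1q and tumour necrosis factor family. It stood at 8.56, 8.28, 8.10 and 7.15 in grouped mice and at 9.29, 9.48, 9.59 and 9.62 in isolated mice, so the groups did not overlap, and it did not pass (limma adjusted p = 0.281). Lyve1, a hyaluronan receptor of lymphatic vessels and some macrophages, and Cd163, a scavenger receptor of resident macrophages, followed with 1.35 and 1.33, also chosen after their values were seen. Cd163 was 8.44, 7.46, 10.81 and 7.44 in grouped and 8.47, 10.28, 10.93 and 9.80 in isolated mice, and Lyve1 8.06, 9.05, 10.48 and 7.16 against 8.07, 10.63, 11.50 and 9.96. In both, grouped replicate 3 was with the higher isolated arrays and isolated replicate 1 was not (limma adjusted p = 0.643 for Cd163 and 0.656 for Lyve1).

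Among 10092 probe sets with no single gene symbol, tested apart, none passed and 620 were at an unadjusted p under 0.05 with limma.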
